A study of Homo sapiens with 15 samples.

Results

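The messenger RNA of 10 genes that encode plasma membrane amino acid transporters was followed in every library of an RNA-seq study of MYC inhibition. The genes are taken by name, as the rows for SLC7A11, SLC7A5, SLC7A6, SLC3A2, SLC7A1, SLC1A5, SLC1A4, SLC38A1, SLC38A2 and SLC6A9. They are 10 of the 16109 genes listed in at least 1 of the 3 tables of the study, and all 10 are listed in each table. PC3, a human prostate cancer cell line, received the vehicle DMSO or 8 µM MYCi975, a compound developed as an inhibitor of MYC, a transcription factor that drives growth genes. P493-6, which the labels call a Burkitt lymphoma line overexpressing c-MYC, received DMSO, MYCi975 at 6 µM, or tetracycline at 0.1 µg/ml. In P493-6 the introduced MYC gene is turned off by tetracycline, and each line stands for 1 genetic background. All cells grew in RPMI with 10% FBS, and exposure lasted 24 h. MYCi975 was dissolved in DMSO and tetracycline in water, so for tetracycline the agent and the change of vehicle cannot be told apart. The labels name no MYC genotype beyond this.

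Amino acids do not cross the plasma membrane unaided. Heterodimeric exchangers are built from a light chain that carries the substrate, such as the SLC7A5, SLC7A6 or SLC7A11 protein, and the single-pass heavy chain SLC3A2 (CD98hc), which brings it to the cell surface. Other carriers work alone, among them the glutamine exchanger SLC1A5, the sodium-coupled SLC38A1 and SLC38A2, the arginine and lysine carrier SLC7A1 and the glycine carrier SLC6A9. Several of these genes are known targets of ATF4, the transcription factor that cells make when amino acids run short or proteins misfold, and SLC7A5, SLC3A2, SLC1A5 and SLC7A1 have also been described as MYC targets.

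Each of the 5 groups had 3 libraries, with 8162582 to 15926008 counted reads per library. Values are CPM (the share of a library's counted reads that fell on a gene, times 1000000), so a rise or fall is relative to the other genes of that library, and a change in total RNA per cell would not be seen. The labels do not say whether the 3 libraries of a group are separate cultures, and the spread behind every p-value may thus be technical. MYC mRNA stood at 4692 to 4791 CPM in P493-6 controls and at 144.9 to 152.3 CPM with tetracycline, whereas with MYCi975 it was 5084 to 5138 CPM. In PC3 it was 300.4 to 309.3 CPM in controls and 359.4 to 385.9 CPM with MYCi975. The 6 epithelial markers summed to 1717 to 1747 CPM in PC3 controls and to 1338 to 1425 CPM with MYCi975, and 1 of the 6 (EPCAM, 10.7 to 11.9 CPM) was listed in the P493-6 control libraries. The 7 B cell markers summed to 3898 to 4124 CPM in P493-6 controls, 4408 to 4723 CPM with MYCi975 and 11500 to 11900 CPM with tetracycline. In PC3 controls 1 of those 7 was listed, at 1.75 to 4.27 CPM. Of 4 T cell and fibroblast markers, only COL1A1 was listed in PC3, at 63.7 to 65.8 CPM in controls. In P493-6 controls COL1A1 and CD3E were listed and summed to 5.73 to 7.85 CPM, against 14.3 to 17.3 CPM with tetracycline. The part of these marker shifts in the transporter results was not tested.

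In PC3, MYCi975 raised 9 of the 10 transporter genes and lowered SLC7A6 (limma on log2(CPM + 1), Benjamini-Hochberg adjusted p below 0.05 over all listed genes, two-sided). Of all 13751 genes in that table, 29.0% were called higher and 30.1% lower. The median log2 fold change of the 10 was 0.981, beside -0.002 for all genes. In P493-6 with MYCi975, 8 of the 10 rose and SLC38A1 and SLC7A6 did not pass. Here 10.6% of 12998 genes were called higher and 18.0% lower, and the median was 0.224 for the transporters and -0.042 for all genes. With TMM scaling, which corrects for composition, the calls over all genes in that comparison split into 1819 higher and 1690 lower, against 1375 and 2338 without it. Tetracycline lowered SLC7A11, SLC7A5, SLC3A2, SLC7A1, SLC1A5 and SLC6A9, raised SLC38A2, and left SLC7A6, SLC1A4 and SLC38A1 without a call, where 36.2% of 13703 genes were called higher and 41.9% lower. The transporters' median there was -0.933 and that of all genes -0.05. Both P493-6 comparisons share the same 3 control libraries. By libraries alone, all 3 treated lay above all 3 controls for 9 of the 10 in PC3 and below them for 1, where 30.2% and 31.7% of genes did so. In P493-6 the MYCi975 libraries lay above for 9 (15.2% of genes), and the tetracycline libraries above for 1 and below for 6 (36.3% and 42.1%).

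**Figure D1:**
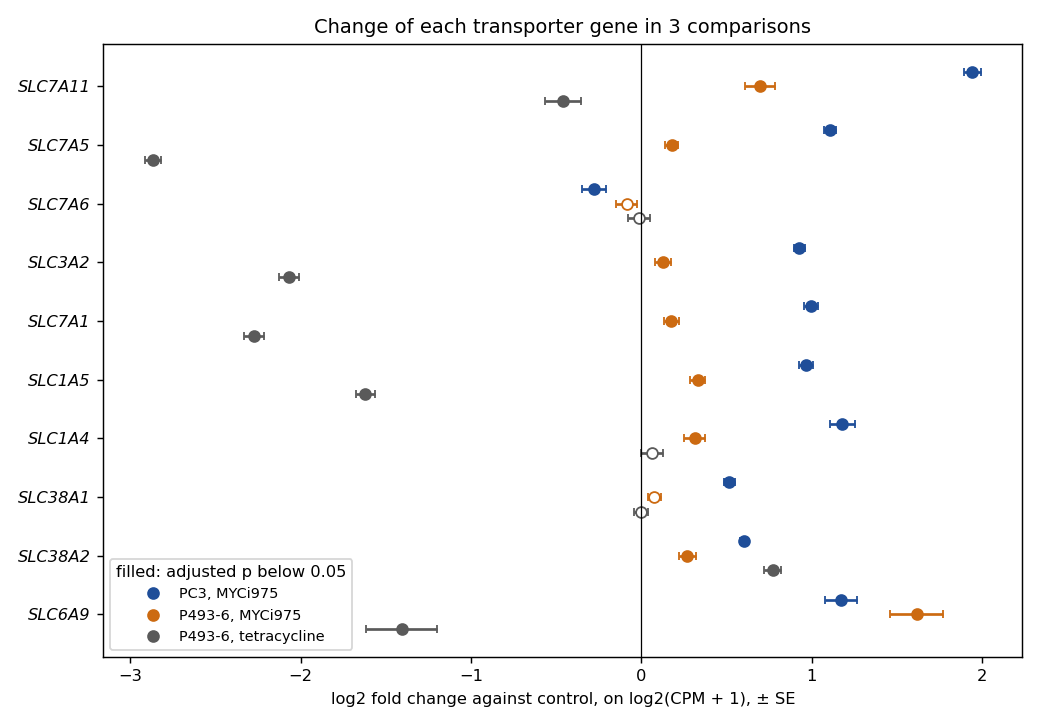
Log2 fold change against control on log2(CPM + 1) for each transporter gene (x axis; rows are genes), with error bars of 1 SE from limma, for 3 libraries against 3; filled points passed an adjusted p below 0.05. The PC3 points lie right of 0 for every gene except SLC7A6, while the tetracycline points of SLC7A5, SLC7A1 and SLC3A2 lie left of -2.

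To set the genes beside each other, CPM was divided by the length of the coding sequence in kilobases (GENCODE 29, joined over annotated transcripts). This scale is used here and for the rank of SLC6A9 below. The libraries were made by exon capture, and how well each gene was captured is not known. The order is therefore one of captured reads per coding length, and may not be that of mRNA amounts. SLC38A2 had the highest level in PC3 controls, 465.9 ± 2.12 (SD, n = 3), followed by SLC38A1 at 178 ± 1.47. SLC3A2 at 88.3 ± 0.912 and SLC7A5 at 85.9 ± 2.21 came next, and their libraries overlapped. SLC1A5 (61.7 ± 2.64), SLC7A1 (42.9 ± 0.523), SLC7A11 (22.8 ± 0.302), SLC7A6 (19.7 ± 1.53), SLC1A4 (10.1 ± 0.196) and SLC6A9 (3.70 ± 0.473) followed, with no overlap between neighbours in that order. P493-6 controls had another order. SLC7A5 was highest at 278 ± 6.48 and SLC38A1 next at 233 ± 6.43, and SLC7A1 (109.5 ± 3.94), SLC1A5 (101 ± 2.36), SLC3A2 (84.3 ± 2.02) and SLC38A2 (66.4 ± 0.244) followed without overlap. SLC1A4 (42.4 ± 4.03) and SLC7A6 (40.9 ± 1.47) overlapped, above SLC7A11 (12.1 ± 0.322) and SLC6A9 (0.863 ± 0.149). With MYCi975 the P493-6 order stayed the same apart from SLC1A5 (127 ± 2.16) and SLC7A1 (124 ± 1.10), which overlapped. With tetracycline SLC38A1 led at 232 ± 4.81, SLC38A2 followed at 114 ± 6.93, and SLC7A5, first in the controls, took the fifth place at 37.5 ± 0.394. In PC3 with MYCi975, SLC7A11 moved from the seventh place to the sixth at 89.6 ± 3.30, overlapping SLC7A1 at 86.1 ± 1.27. SLC7A5 (185.6 ± 5.96) stood above SLC3A2 (168.2 ± 1.88) there, and SLC1A4 (23.6 ± 0.822) above SLC7A6 (16.1 ± 1.10), both without overlap.

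**Figure D2:**
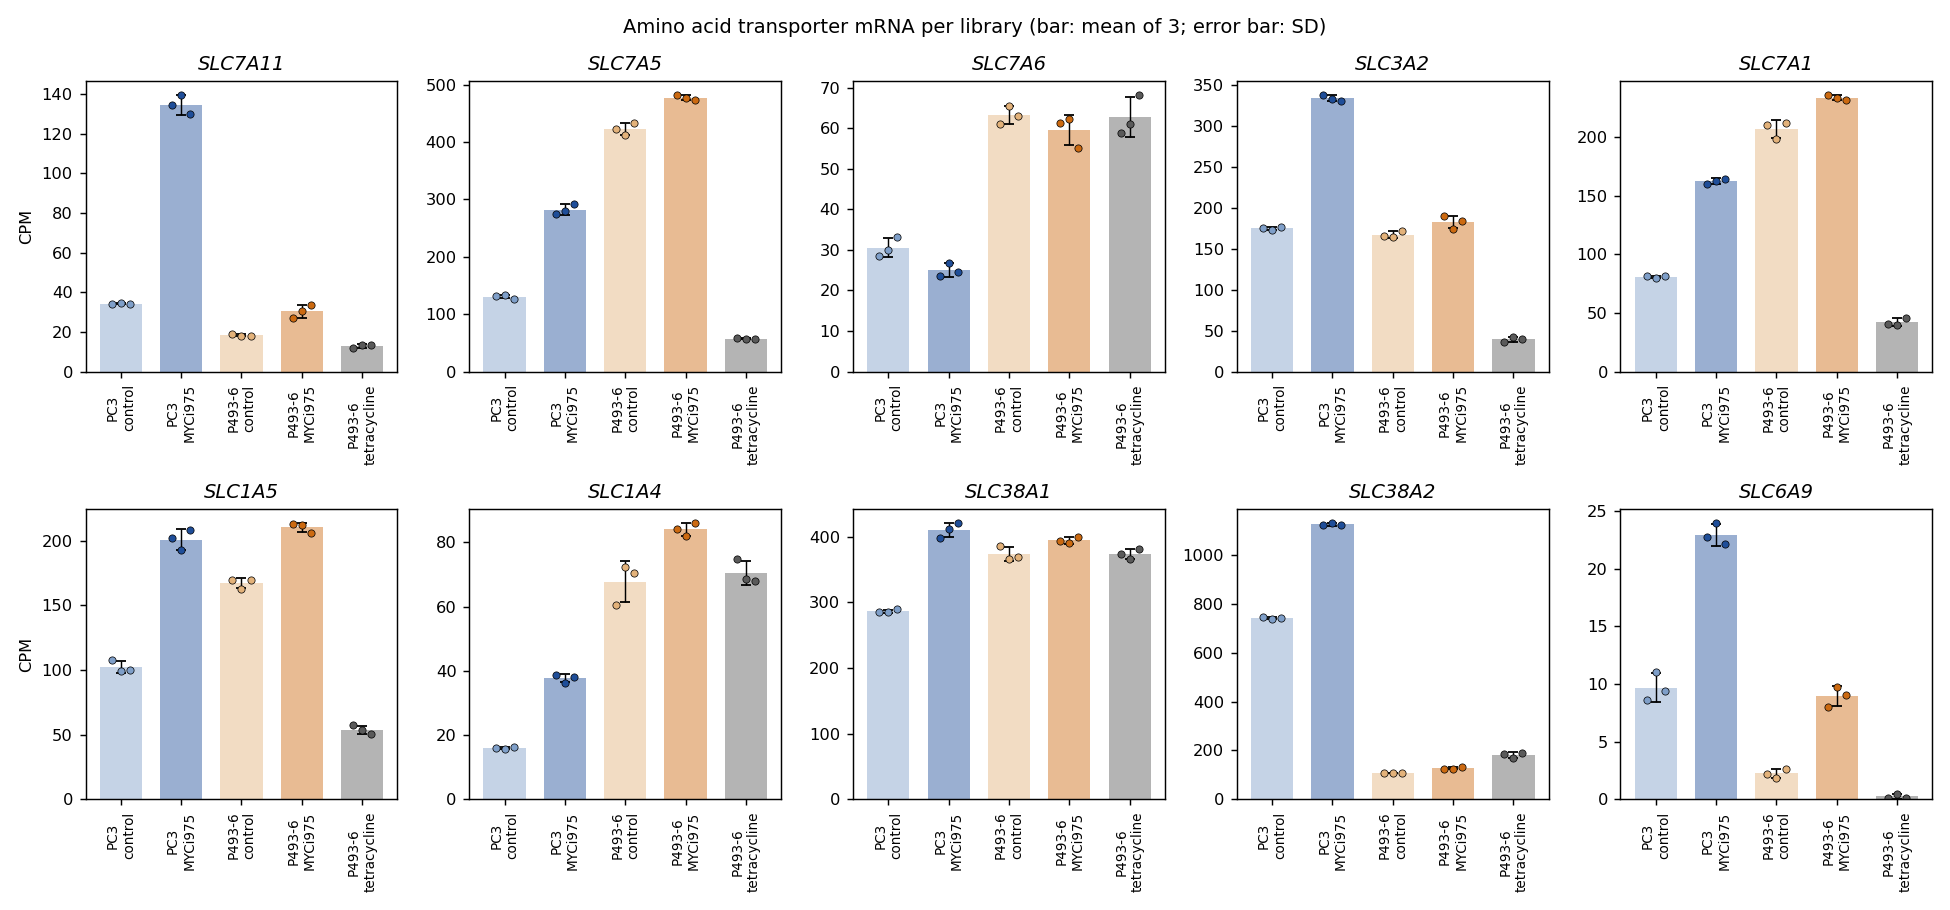
CPM of each transporter gene in each of the 15 libraries (points), by group (x axis), with the mean of 3 as a bar from 0 and the SD as an error bar. The y scale differs between panels. SLC7A5, SLC3A2, SLC7A1 and SLC1A5 share a shape, up with MYCi975 in PC3 and far down with tetracycline in P493-6, while SLC38A2 is highest in PC3 and SLC6A9 is near 0 with tetracycline.

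SLC7A11 had no entry among the start-site sequences used and was not searched. For 9 of the 10 genes they were matched in RefSeq (GRCh38.p14). The 15 windows run from 250 bases before to 50 bases after a start. They were searched on both strands for 3 short motifs, none of which contains another: TGATGNAA, the core of the C/EBP-ATF response element that ATF4 binds, TGACNNNGC, the core of the antioxidant response element that NRF2 binds, and CACGTG, the canonical E-box that MYC binds with its partner MAX. TGATGNAA is in 3.62% of 35116 such windows, and it was found in 5 of the 15 transporter windows, 1 each of SLC1A4, SLC3A2, SLC38A1, SLC7A1 and SLC1A5. The stretches are shown because all 5 genes rose in PC3; capitals mark the match (its reverse complement where it lies on the other strand, as in SLC1A4 and SLC3A2), and each runs 5′ to 3′ on the strand of the gene.
SLC1A4, chr2:64989382-64989409 (plus strand): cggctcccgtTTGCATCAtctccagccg
SLC3A2, chr11:62881726-62881748 (plus strand): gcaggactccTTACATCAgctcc
SLC38A1, chr12:46266503-46266530 (minus strand): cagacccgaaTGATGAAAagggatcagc
SLC7A1, chr13:29595664-29595691 (minus strand): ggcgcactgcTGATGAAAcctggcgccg
SLC1A5, chr19:46784894-46784921 (minus strand): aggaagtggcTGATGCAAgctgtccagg
The first base of the match lies 7 bases before 1 of 2 starts of SLC1A4, 4 before 1 of 2 starts of SLC38A1 and 97 before 1 of 3 starts of SLC1A5. It lies at position 38 after 1 of 3 starts of SLC3A2 and at position 8 after the single start of SLC7A1. The other windows of these genes do not hold these letters. SLC7A5, SLC38A2 and SLC6A9 also rose in PC3 without these letters in their windows, and SLC7A6, which fell, had none either.

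The E-box letters CACGTG are in 7.26% of all windows and were found in 2 of the 15 transporter windows. They lie 130 bases before the single start of SLC7A5 and 50 bases before 1 of 3 starts of SLC1A5. The other SLC1A5 windows, among them the one at the 5′ end of the annotated gene, do not hold these letters. The 2 stretches are shown because both genes fell with tetracycline, with the E-box in capitals.
SLC7A5, chr16:87869592-87869677 (minus strand): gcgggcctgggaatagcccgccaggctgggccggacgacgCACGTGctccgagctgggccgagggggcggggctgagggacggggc
SLC1A5, chr19:46787328-46787353 (minus strand): cgggagtggtCACGTGgacaggacgg
SLC3A2, SLC7A1 and SLC6A9 fell with tetracycline as well and do not have these 6 letters in the windows searched. TGACNNNGC is in 13.3% of all windows and in 5 of the 15 transporter windows, 1 each of SLC3A2, SLC7A1, SLC7A6, SLC7A5 and SLC1A5. The SLC3A2 match, 37 bases before 1 of its 3 starts, is shown because SLC3A2 is the shared heavy chain.
SLC3A2, chr11:62881622-62881698 (plus strand): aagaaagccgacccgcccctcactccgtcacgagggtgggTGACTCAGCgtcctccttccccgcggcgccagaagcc
A match is a stretch of letters in a reference window and not a measured binding site.

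SLC3A2 (ENSG00000168003, chr11:62856102-62888875, plus strand, hg38), the heavy chain, had near-equal levels in the control libraries of both lines. In PC3 the controls held 176, 173 and 177 CPM and the MYCi975 libraries 338, 333 and 331 CPM. All 3 treated libraries lay above all 3 controls, and the log2 fold change was 0.93 (SE 0.0338, adjusted p = 9.36e-44), above that of 97.2% of listed genes. In P493-6 the controls held 165, 165 and 172 CPM, the MYCi975 libraries 189.9, 175 and 184 CPM and the tetracycline libraries 36.2, 42.5 and 39.2 CPM. The 3 groups did not overlap, and tetracycline left 23.5% of the control mean (log2 fold change -2.07, SE 0.0598, adjusted p = 5.95e-29). The rise with MYCi975 in P493-6 was small, 0.13 (SE 0.0454, adjusted p = 0.0309). It lost its call without control replicate 1 (adjusted p = 0.0746), without control replicate 2 (0.115), without MYCi975 replicate 1 (0.174), without MYCi975 replicate 3 (0.0536) and in a fit of all 9 P493-6 libraries (0.0802). Between the controls of the lines SLC3A2 differed by 0.07 (PC3 minus P493-6, 95% interval -0.01 to 0.14, adjusted p = 0.102), and with TMM scaling by 0.11 (adjusted p = 0.00997).

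SLC7A5 (LAT1; ENSG00000103257, chr16:87830023-87869488, minus strand) is the light chain that exchanges leucine and other large neutral amino acids for glutamine. In PC3 the controls held 132, 133 and 127 CPM and the MYCi975 libraries 274, 281 and 292 CPM, a 2.16-fold rise of the mean with no overlap (log2 fold change 1.11, SE 0.0363, adjusted p = 2.3e-47). P493-6 controls, at 422, 413 and 433 CPM, were more than 3 times as high as PC3 controls, and PC3 minus P493-6 was -1.69 in log2(CPM + 1) (SE 0.0357, adjusted p = 1.55e-33). MYCi975 brought the P493-6 libraries to 482, 477 and 474 CPM (0.18, SE 0.0388, adjusted p = 0.000394), again all above the controls. With tetracycline they held 57.7, 56.8 and 56.6 CPM. That is 13.5% of the control mean, a log2 fold change of -2.87 (SE 0.0459, adjusted p = 2.04e-37), and 0.657% of listed genes had a lower value. SLC7A5 shares sequence with pseudogene copies, of which SLC7A5P1 was listed at 5.83 to 7.53 CPM in P493-6 controls and 1.52 to 2.21 CPM with tetracycline. How reads common to both were assigned is not given in the sources used here, so both levels are uncertain.

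SLC7A11 (xCT; ENSG00000151012, chr4:138164097-138242349, minus strand) is the light chain that imports cystine in exchange for glutamate and feeds glutathione synthesis. It made the largest rise of the 10 in PC3. The controls held 33.9, 34.8 and 34.2 CPM and the MYCi975 libraries 134, 139.6 and 129.7 CPM, 3.93-fold higher on the means with no overlap. The log2 fold change was 1.94 (SE 0.0496, adjusted p = 4e-56), above 99.7% of listed genes. P493-6 controls held 18.8, 17.9 and 18.0 CPM, MYCi975 libraries 26.8, 30.6 and 33.6 CPM, and tetracycline libraries 11.9, 13.6 and 13.5 CPM. The 3 groups stood apart, with a rise of 0.70 (SE 0.0891, adjusted p = 3.43e-08) with MYCi975 and a log2 fold change of -0.46 with tetracycline (SE 0.107, adjusted p = 0.000194). The 2 treatments of P493-6 thus moved this gene to opposite sides of the same controls.

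SLC7A6 (y+LAT2; ENSG00000103064, chr16:68264516-68301823, plus strand), a light chain that exchanges arginine and other cationic amino acids for neutral ones, was the exception among the light chains. In PC3 the controls held 28.5, 29.9 and 33.1 CPM and the MYCi975 libraries 23.4, 26.8 and 24.6 CPM. The treated libraries all lay below the controls (log2 fold change -0.28, SE 0.0721, adjusted p = 0.000515), at 81.8% of their mean. In P493-6 the controls held 61.1, 65.6 and 63.0 CPM, the MYCi975 libraries 61.2, 62.2 and 55.2 CPM and the tetracycline libraries 58.8, 61.0 and 68.2 CPM. These overlapped. The 95% intervals of the log2 fold changes were -0.21 to 0.04 for MYCi975 (adjusted p = 0.302) and -0.15 to 0.12 for tetracycline (adjusted p = 0.839). SLC7A6OS overlaps SLC7A6 on the opposite strand and was listed at 29.99 to 33.2 CPM in PC3 with MYCi975 and 31.1 to 33.0 CPM in controls. The libraries kept strand, but the strand setting of the counting is not given in the sources used here, and the same holds for CCDC24 beside SLC6A9.

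Since the light chains pair with SLC3A2, their mRNA ratios to it were taken within each library, which needs no scaling between libraries. The log2 ratio of SLC7A5 to SLC3A2 in P493-6 was 1.35, 1.32 and 1.33 in controls and 0.66, 0.41 and 0.52 with tetracycline, so the light chain fell further than the heavy chain (difference -0.801). With MYCi975 the P493-6 ratio was 1.34, 1.44 and 1.36, overlapping the controls (difference 0.051), and in PC3 the difference was 0.179. The SLC7A11 ratio in PC3 was -2.34, -2.28 and -2.34 in controls and -1.33, -1.25 and -1.35 with MYCi975, a difference of 1.015. In P493-6 it was above the controls by 0.57 with MYCi975 and by 1.607 with tetracycline, where SLC3A2 fell further than SLC7A11. The SLC7A6 ratio differed from control by -1.206 in PC3. In P493-6 the difference was -0.214 with MYCi975 and 2.051 with tetracycline, which took it from -1.42, -1.32 and -1.43 to 0.69, 0.51 and 0.78. SLC7A6 itself was not called with tetracycline (log2 fold change -0.01), whereas SLC3A2 fell (-2.07). In 8 of these 9 comparisons the 3 treated and 3 control libraries did not overlap, which gave a two-sided exact permutation p of 0.10, the smallest that 3 against 3 allows (0.11 after Benjamini-Hochberg adjustment over 9), and 0.2 for SLC7A5 in P493-6 with MYCi975. None can therefore pass 0.05 in this design.

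**Figure D3:**
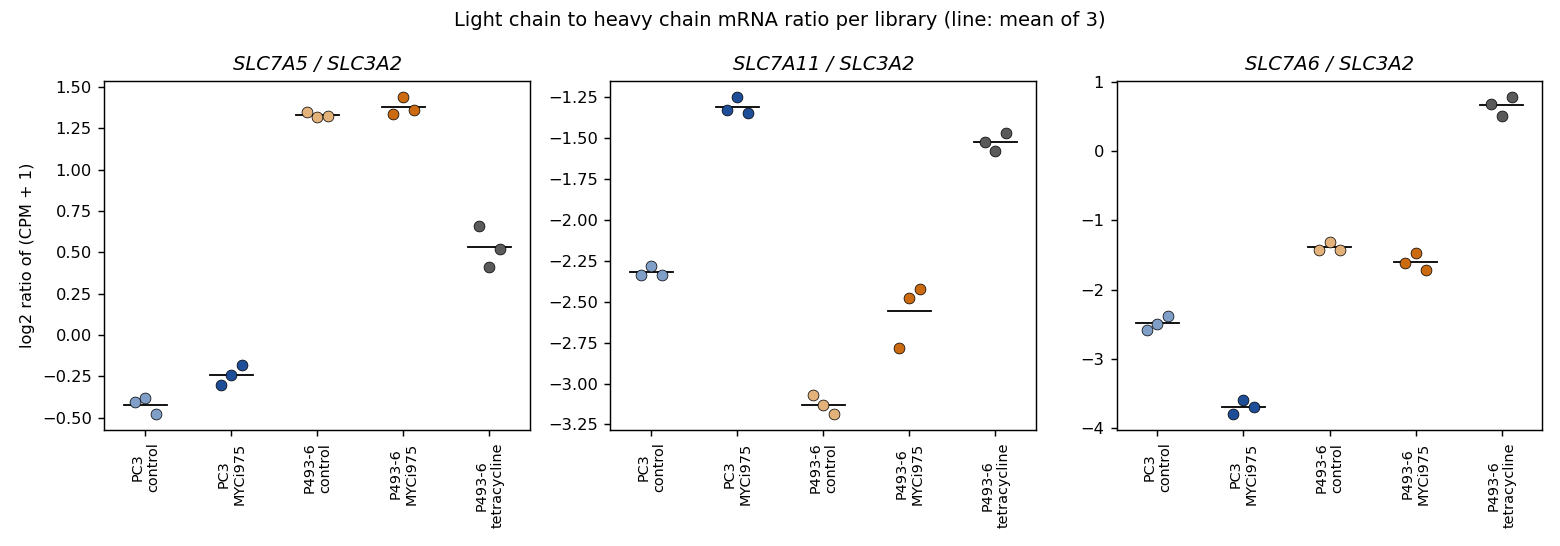
Log2 ratio of light chain to SLC3A2 mRNA, each as CPM + 1, per library (points) by group (x axis), with the mean of 3 as a line; panels are SLC7A5, SLC7A11 and SLC7A6. In the tetracycline libraries SLC7A5 is at 0.41 to 0.66 against 1.32 to 1.35 in controls, whereas SLC7A6 and SLC7A11 are above their controls. SLC3A2 itself fell with tetracycline, and neither SLC7A6 nor SLC7A11 was called higher.

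SLC7A1 (CAT1; ENSG00000139514, chr13:29509410-29595688, minus strand) carries arginine, lysine and ornithine without a heavy chain. In PC3 the controls held 81.3, 79.8 and 81.6 CPM, and the libraries with MYCi975 159.9, 163 and 165 CPM. The mean rose 2.01-fold with no overlap (log2 fold change 1.00, SE 0.0412, adjusted p = 1.4e-39). P493-6 controls held 210.3, 198 and 212 CPM, MYCi975 libraries 236, 233 and 232 CPM and tetracycline libraries 40.4, 39.6 and 46.0 CPM. Every MYCi975 library was above and every tetracycline library far below the controls. The rise was 0.18 (SE 0.0431, adjusted p = 0.00134), and with tetracycline, at 20.3% of the control mean, the log2 fold change was -2.28 (SE 0.058, adjusted p = 7.52e-31).

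SLC1A5 (ASCT2; ENSG00000105281, chr19:46774883-46788594, minus strand) exchanges glutamine, alanine, serine and cysteine with sodium. PC3 controls held 107, 99.4 and 100.3 CPM and MYCi975 libraries 202, 193 and 208 CPM, a 1.96-fold rise with no overlap (log2 fold change 0.97, SE 0.0397, adjusted p = 9.53e-40). In P493-6 the controls held 169, 163 and 169.8 CPM, the MYCi975 libraries 213, 212 and 206 CPM and the tetracycline libraries 57.0, 53.5 and 50.8 CPM. The MYCi975 libraries were all above the controls, by 0.33 (SE 0.0439, adjusted p = 8.03e-08). Tetracycline left 32.2% of the control mean (-1.62, SE 0.0552, adjusted p = 1.5e-26).

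SLC1A4 (ASCT1; ENSG00000115902, chr2:64988477-65023865, plus strand), the close relative of SLC1A5 that carries serine, alanine, cysteine and threonine, separated from SLC1A5 under tetracycline. It rose 2.34-fold in PC3, from 16.1, 15.8 and 16.4 CPM to 38.7, 36.2 and 38.2 CPM (log2 fold change 1.18, SE 0.0735, adjusted p = 7.09e-27), with no overlap. P493-6 controls, at 60.4, 72.4 and 70.4 CPM, lay above both PC3 groups. MYCi975 brought them to 84.3, 81.9 and 86.1 CPM (0.31, SE 0.0594, adjusted p = 5.58e-05), again without overlap. With tetracycline SLC1A4 was at 74.8, 68.7 and 68.0 CPM, which overlapped the controls, and its 95% interval ran from -0.07 to 0.19 (log2 fold change 0.06, adjusted p = 0.4).

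SLC38A1 (SNAT1; ENSG00000111371, chr12:46183063-46270017, minus strand) and SLC38A2 (SNAT2; ENSG00000134294, chr12:46358189-46372867, minus strand) are neighbours on chromosome 12 and both take up glutamine, alanine and other small neutral amino acids with sodium. PC3 controls held 285, 285 and 289 CPM and PC3 libraries with MYCi975 398, 412 and 420.3 CPM, a 1.43-fold rise with no overlap (log2 fold change 0.52, SE 0.0316, adjusted p = 2.24e-27). In P493-6 it was 386, 366 and 369 CPM in controls, 393, 390.0 and 399 CPM with MYCi975 and 373, 365 and 381 CPM with tetracycline. The MYCi975 libraries lay just above the controls but the rise of 0.08 did not pass (95% interval -0.00 to 0.16, adjusted p = 0.153); with TMM scaling it was 0.12 and passed (adjusted p = 0.0178). The tetracycline interval was -0.08 to 0.08.

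SLC38A2, known to be induced when cells lack amino acids, differed between the lines more than any other of the 10. PC3 controls held 747, 739.8 and 743 CPM and P493-6 controls 106, 106 and 106 CPM, so that log2(CPM + 1) differed by 2.80 (SE 0.034, adjusted p = 1.83e-41). In PC3 with MYCi975 it reached 1125, 1135 and 1125 CPM, 1.52-fold above the controls (0.60, SE 0.0258, adjusted p = 2.43e-38). The P493-6 libraries with MYCi975 held 125, 126 and 133 CPM and those with tetracycline 186, 169 and 190.1 CPM. The 3 groups did not overlap, and SLC38A2 was the one gene of the 10 that tetracycline raised (0.77, SE 0.0497, adjusted p = 2.41e-17), by more than MYCi975 did (0.27, SE 0.0487, adjusted p = 2.4e-05).

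SLC6A9 (GlyT1; ENSG00000196517, chr1:43991500-44031467, minus strand), which takes up glycine with sodium and chloride, was the lowest of the 10 per coding length in every group. The PC3 controls held 8.60, 11.0 and 9.41 CPM and the MYCi975 libraries 22.8, 24.0 and 22.1 CPM, with no overlap (log2 fold change 1.17, SE 0.0929, adjusted p = 1.62e-20). In P493-6 controls it was 2.23, 1.88 and 2.66 CPM, from 23, 23 and 26 reads. MYCi975 raised it to 8.04, 9.77 and 9.09 CPM, a log2 fold change of 1.62 (SE 0.156, adjusted p = 3.58e-11), the highest of the 10 in P493-6. The tetracycline libraries held 0.115, 0.490 and 0.101 CPM, which are 1, 4 and 1 reads, all below the controls (-1.41, SE 0.206, adjusted p = 9.17e-08). The gene is listed in that comparison through its control libraries alone, and such a listing favours a fall. With so few reads the pseudocount sets the size: by reads, the tetracycline rate was 0.101 of control (95% exact interval 0.0357 to 0.23) and the MYCi975 rate 4.0 times control (3.08 to 5.26), counting error only. The log2 fold change with tetracycline ran from -0.47 with a pseudocount of 5 to -2.99 with 0.1, and with MYCi975 from 0.94 to 1.95.

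The size of the MYCi975 response was compared between the lines in 1 model over 12 libraries and the 11240 genes listed in both tables, with the doses differing (8 µM in PC3, 6 µM in P493-6). The line and the dose cannot be told apart. The response was higher in PC3 for 8 of the 10 transporters, where 18.1% of genes were called higher and 18.2% lower. SLC7A11 led with a difference of 1.25 (SE 0.0965, adjusted p = 1.44e-13), and SLC7A5 (0.93), SLC1A4 (0.87), SLC7A1 (0.82), SLC3A2 (0.80) and SLC1A5 (0.64) followed, all with SE of 0.0505 to 0.0921. The SLC38A1 and SLC38A2 differences were smaller, 0.44 (SE 0.0482) and 0.33 (SE 0.0481). SLC7A6 did not pass (-0.19, 95% interval -0.39 to 0.00, adjusted p = 0.119). SLC6A9 was called on the other side (-0.44, SE 0.174, adjusted p = 0.0427), but that call went with a pseudocount of 5 (-0.01, adjusted p = 0.954) and when any 1 of 9 of the 12 libraries was left out (adjusted p 0.052 to 0.145). Those were P493-6 control replicates 1 and 2, P493-6 MYCi975 replicates 2 and 3, PC3 control replicates 2 and 3 and all 3 PC3 MYCi975 replicates. Across the 10 genes the 2 responses had a Pearson r of 0.51 and a Spearman rho of 0.78. These genes come from the same libraries and are not independent, so the values are a description.

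**Figure D4:**
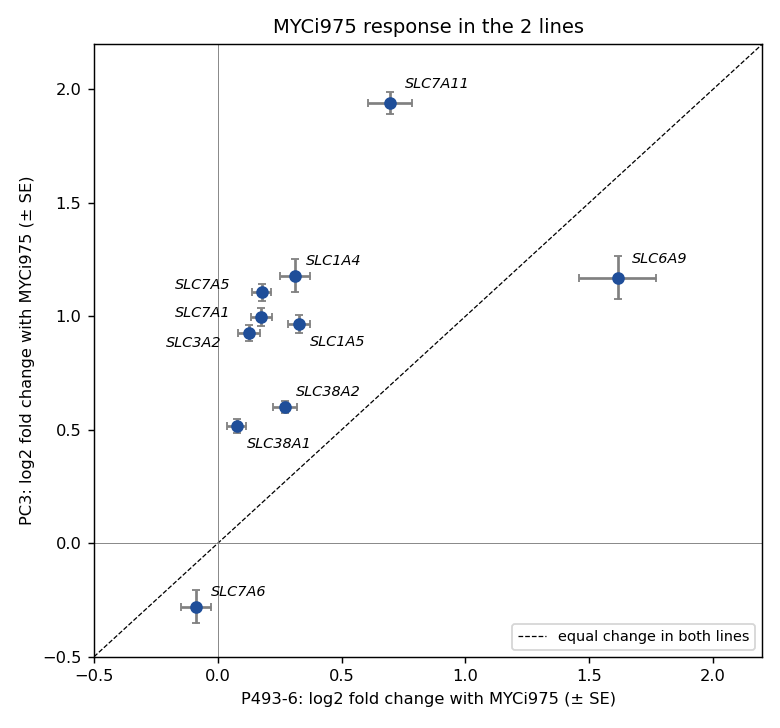
Log2 fold change with MYCi975 in P493-6 (x axis) and in PC3 (y axis) for the 10 genes, on log2(CPM + 1), with error bars of 1 SE; the dashed line marks an equal change. Every gene but SLC6A9 and SLC7A6 lies above the line, and SLC7A11 is highest on the PC3 axis at 1.94.

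The 2 treatments of P493-6 were also set against each other over all 9 libraries and the 12860 genes of both tables, so that the shared controls drop out of the difference. With MYCi975, 7 of the 10 transporters stood above tetracycline and SLC38A2 below it. Over all genes 42.3% were called higher and 33.9% lower. With TMM scaling that split moved from 5438 higher and 4356 lower to 4884 and 4929. SLC7A5 differed by 3.04 (SE 0.0418, adjusted p = 2.93e-47), SLC7A1 by 2.45 (SE 0.0517), SLC3A2 by 2.19 (SE 0.0543) and SLC1A5 by 1.95 (SE 0.0499). SLC6A9 differed by 3.02 (SE 0.188, adjusted p = 4.27e-20), a size that the pseudocount sets, from 1.41 with 5 to 4.94 with 0.1. SLC7A11 (1.16, SE 0.0985) and SLC1A4 (0.25, SE 0.0618, adjusted p = 0.000303) differed by less. SLC38A2 was lower with MYCi975 (difference -0.50, SE 0.0494, adjusted p = 6.32e-13). SLC38A1 (0.08, adjusted p = 0.0652) and SLC7A6 (-0.07, adjusted p = 0.308) did not pass, and SLC7A6 was called lower with TMM scaling (-0.17, adjusted p = 0.013).

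Between the control libraries of the lines 6 of the 10 were lower in PC3 and 3 higher, where 43.0% of genes were called lower and 41.8% higher. The higher ones were SLC38A2, SLC7A11 (0.87, SE 0.0682) and SLC6A9 (1.71, SE 0.123, and 1.01 with a pseudocount of 5). SLC1A4 had the largest deficit in PC3 (-2.00, SE 0.0651), followed by SLC7A5, SLC7A1 (-1.34, SE 0.0396), SLC7A6 (-1.03, SE 0.0681), SLC1A5 (-0.70, SE 0.0414) and SLC38A1 (-0.38, SE 0.0341).

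Other amino acid transporters of the plasma membrane were taken from a list of 30. The counts of this and the following lists stand beside the shares over all genes given above, 29.0% higher and 30.1% lower for PC3. For P493-6 these were 10.6% and 18.0% under MYCi975, and 36.2% and 41.9% under tetracycline. No test of a list against other genes was made. Where a named list gene has a mean below 1 CPM, both means are given, since the pseudocount then weighs on the size. Genes were listed only if they exceeded 1 CPM in at least 2 of 6 libraries. A gene with a mean below 1 CPM in 1 group may thus be listed only through the other group. The listing then favours a change toward that other group, in the counts as in the named genes. In PC3, 6 were listed, and 1 rose, 3 fell and 2 did not pass, with a median log2 fold change of -0.282. SLC43A1, a leucine carrier that needs no heavy chain, rose by 0.60 (SE 0.0835). SLC1A3, a glutamate carrier, changed by -0.59 (from a mean of 1.19 to 0.456 CPM) and SLC43A2 by -0.33. In P493-6 with MYCi975, 3 of 7 rose and 3 fell (median -0.026), with SLC43A1 at 0.49, SLC7A7, the sister light chain of SLC7A6, at 0.35 and SLC43A2 at -0.28. Tetracycline lowered 5 of 7 and raised 2 (median -1.308). SLC38A5, a glutamine and glycine carrier, went from a mean of 67.4 to 4.77 CPM (-3.57, SE 0.099), SLC7A2, a cationic carrier related to SLC7A1, from 63.3 to 6.45 CPM (-3.11, SE 0.0947) and SLC43A1 from 36.2 to 6.80 CPM (-2.26, SE 0.106).

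Of the amino acid transporters of the lysosome, 6 of 8 listed rose in PC3 and 1 fell (median 0.468). The cystine carrier CTNS rose from 24.5 to 49.2 CPM (0.98, SE 0.0665), and SLC38A7 (0.85) and PQLC2 (0.68) rose. With MYCi975 in P493-6, 1 of 9 fell, MFSD12 (-0.19, SE 0.0607), and 8 did not pass (median -0.025). With tetracycline 3 rose, 4 fell and 2 did not pass (median 0.029), CTNS (-1.15), MFSD12 (-1.14) and SLC36A4 (-1.04) being among those that fell. Of 9 mitochondrial amino acid carriers listed in PC3, 1 rose and 4 fell (median -0.252), led by the aspartate and glutamate carrier SLC25A12 (-0.70), SLC25A44 (-0.47) and SLC25A29 (-0.33). In P493-6, 4 of 9 fell with MYCi975 (median -0.175), among them SLC25A44 (-0.44), SLC25A13 (-0.29) and the serine carrier SFXN1 (-0.25), and 7 of 9 with tetracycline (median -1.133), with SLC25A15 at -2.17, SFXN1 at -1.79 and SLC25A13 at -1.46.

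**Figure D5:**
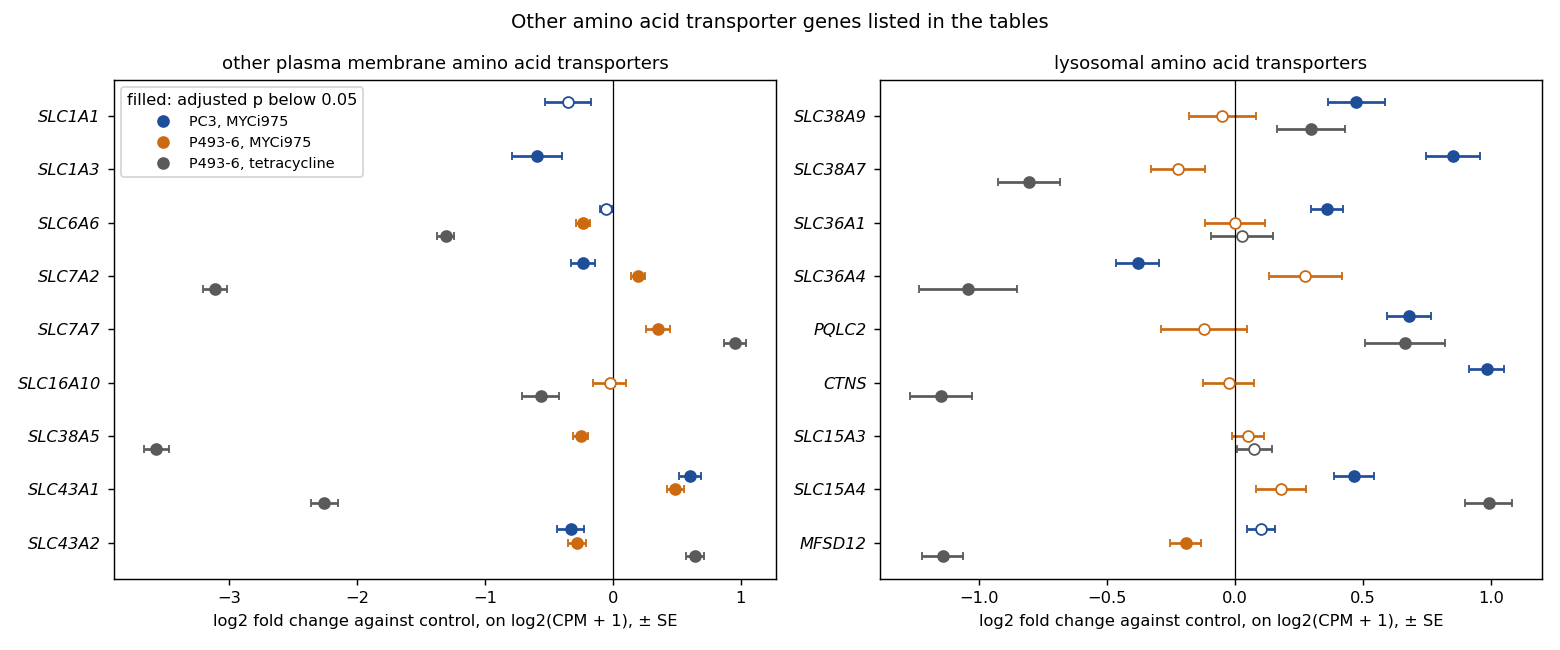
Log2 fold change against control on log2(CPM + 1), with error bars of 1 SE, for the listed members of 2 further transporter groups (rows), in 3 comparisons of 3 libraries with 3; filled points passed an adjusted p below 0.05. Under tetracycline SLC38A5, SLC7A2 and SLC43A1 lie between -3.57 and -2.26, and 6 of the 8 lysosomal genes in PC3 passed on the right of 0.

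Genes of the ATF4 arm of the stress response rose in PC3 in 17 of 20 cases and fell in 2 (median log2 fold change 1.812). TRIB3, a pseudokinase that restrains ATF4 signalling, rose from a mean of 45.1 to 610.4 CPM (3.73, SE 0.0379), DDIT4, an mTORC1 inhibitor, from 3.68 to 44.7 CPM (3.29, SE 0.0954) and NUPR1 from 7.95 to 83.3 CPM (3.25, SE 0.0846). In P493-6 with MYCi975, 13 of 19 rose and 2 fell (median 0.456). VLDLR was at 2.05 (from a mean of 0.409 to 4.77 CPM). CHAC1, which degrades glutathione, was at 1.77 (from 0.501 to 4.08 CPM) and STC2 at 1.44. With tetracycline 9 rose and 8 fell of 18 (median 0.102). EIF2AK2, a kinase that senses double-stranded RNA, rose by 2.55 and PPP1R15A by 1.77. STC2 changed by -2.11 (from a mean of 5.87 to 0.579 CPM). ATF4 itself was called higher in PC3 (1.85, SE 0.0363) and in P493-6 with MYCi975 (0.31, SE 0.0414). It was called lower with tetracycline (-1.08, SE 0.0451), so the list median there does not stand for ATF4. The enzymes that make or use the transported amino acids rose in 14 of 23 cases in PC3 and fell in 6 (median 0.396), with asparagine synthetase ASNS at 2.73 (SE 0.0518) and the serine synthesis enzymes PHGDH and PSAT1 at 1.71 and 1.46. In P493-6 with MYCi975, 8 of 21 rose and 2 fell (median 0.042). ASS1 rose by 1.75, CTH by 1.24 (from a mean of 0.865 to 3.40 CPM) and ASNS by 0.73. Tetracycline lowered 19 of those 21 and raised 1 (median -1.392), with PSAT1 at -3.09, ASS1 at -2.94 and PYCR1 at -2.55.

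NRF2 drives antioxidant genes, SLC7A11 and the glutathione synthesis enzymes among them, and the genes of its pathway rose in 12 of 13 cases in PC3 and fell in 1 (median 0.578), with HMOX1 at 1.83, GCLC, the rate-limiting enzyme of glutathione synthesis, at 1.21 and ME1 at 0.84. With MYCi975 in P493-6, 2 of 12 rose and 4 fell (median 0.018), with SLC48A1 at 0.58, BACH1 at 0.27 and NQO1 at -0.25. With tetracycline 6 rose and 6 fell (median -0.062), SRXN1 changing by -1.38, NQO1 by 0.97 and HMOX1 by 0.92. Genes of amino acid sensing and transporter turnover rose in 11 of 16 cases in PC3 and fell in 2 (median 0.396). The leucine sensor SESN2 rose by 2.99 (SE 0.0808), RRAGD by 1.03 (from a mean of 0.312 to 1.67 CPM) and NEDD4, a ubiquitin ligase, by 0.98. The lists share members, so their counts are not separate: SESN2 here and ASNS among the enzymes are also in the ATF4 list. MYCi975 in P493-6 raised 3 of 14 and lowered 2 (median 0.021), with SESN2 at 0.75, TXNIP at -0.32 and RRAGA at -0.21. With tetracycline 11 of 15 rose and 3 fell (median 0.6), with TXNIP at 2.79, SESN3 at 2.22 and LARS, the leucyl-tRNA synthetase, at -2.24.

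For each transporter the genes with the most similar set of 3 log2 fold changes were found by Euclidean distance, among 8711 genes in all 3 tables with a mean of at least 5 CPM in each. SLC3A2 had EPRS, a tRNA synthetase, at a distance of 0.068, with 0.91 in PC3, 0.06 in P493-6 with MYCi975 and -2.07 with tetracycline. Next came the mitochondrial protease LONP1 at 0.181. For SLC7A5 they were XPOT, which exports tRNA from the nucleus, at 0.272 and the proline synthesis enzyme PYCR1 at 0.389, and for SLC7A1 they were SLC3A2 itself at 0.226 and EPRS at 0.254. SLC7A11 had no close neighbour: ERN1 at 0.683 and ATF4 at 0.735 were the nearest, ATF4 with 1.85 in PC3, 0.31 in P493-6 with MYCi975 and -1.08 with tetracycline. SLC6A9 was farther still from its nearest genes, XBP1 at 1.222 and JMY at 1.275. Its own mean in the tetracycline comparison was below 5 CPM, a level required of the genes searched but not of the transporters. The pseudocount also sets the size of its changes, so its distances depend on both choices. SLC1A5 was nearest to MXI1 (0.277), which encodes a repressor that binds MAX, and OSBPL1A (0.305), and SLC1A4 to INPP4B (0.216) and PABPC1L (0.221). SLC38A2 was nearest to SPTLC2 (0.061) and EVC2 (0.091), SLC38A1 to GOLGA5 (0.042) and ABC7-42389800N19.1 (0.052), and SLC7A6 to MAP2K3 (0.033) and HPS6 (0.036), in a range of small changes where many genes lie close together.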

How the data were processed

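Total RNA from 15 samples of 2 cell lines was made into strand-specific exon capture libraries (TruSeq RNA Access), per the labels' protocols. STAR, HTSeq, edgeR and the build hg38 are named in the submitters' processing notes; neither versions and settings nor the annotation was stated in the sources used here. The authors deposited CPM, scaled to the reads counted per library, with 3 libraries per group in 3 tables. Per the file headers, further columns that entered no test here give p-values, a likelihood ratio score, and 2 log2 columns (mean CPM and fold change). The genes listed all exceed 1 CPM in at least 2 of 6 libraries. Both P493-6 tables hold the same control values.

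Whole reads recovered from the CPM (within 0.001 reads) gave depths of 8162582 to 15926008, so 1 CPM is 8.16 to 15.9 reads. limma 3.58.1 (R 4.3.3, trend and robust) was run on log2(CPM + 1) over all genes of a comparison, with Benjamini-Hochberg adjustment, and called below 0.05. Alternatives were pseudocounts of 0.1 and 5, a minimum mean of 5 CPM, TMM scaling, edgeR 4.0.16 quasi-likelihood on recovered reads, a replicate block and leaving out each library. The fits were tested on simulated data, with changes put into genes with a control mean of at least 5 CPM. At a true log2 change of 0.25, 56% were recovered for PC3, 46% for P493-6 with MYCi975 and 38% for tetracycline. At 0.5 these were 92%, 88% and 84%, and at 1 they were 100% in each. A gene without a call may thus hold a small change. The members, the 10 gene lists and the tests were chosen with earlier results of these data known. All 10 members are named; from each list, up to 3 called genes with the largest change per comparison with control (where none was called, the 1 with the smallest p), and for likeness the 2 nearest genes. MYC was named as the check of tetracycline, and ATF4 because a list carries its name.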

Additional observations from a re-analysis of the deposited data

Results flagged for a closer look

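The MYCi975 response differed between PC3 and P493-6 by the interaction test for 9 of the 10 transporter genes (PC3 minus P493-6 on log2(CPM + 1), limma over 11240 genes, 3 libraries per group), where 18.1% of all genes were called higher in PC3 and 18.2% lower. The differences were 1.245 for SLC7A11, 0.9288 for SLC7A5, 0.867 for SLC1A4, 0.8203 for SLC7A1, 0.8002 for SLC3A2, 0.6364 for SLC1A5, 0.4403 for SLC38A1 and 0.3317 for SLC38A2. For SLC6A9 it was -0.4447, a call lost with a pseudocount of 5 (adjusted p = 0.954), with the replicate block (0.0506) and without any 1 of 9 of the 12 libraries (0.052 to 0.145). Its P493-6 controls rest on 23 to 26 reads per library, and by reads its ratio to control was 2.37 (95% exact interval 2.12 to 2.66) in PC3 and 4.0 (3.08 to 5.26) in P493-6. Those intervals pool the reads of the 3 libraries and hold counting error only. Spread between libraries is left out, so they do not test a difference between the lines. The lines received 8 µM and 6 µM, so line and dose cannot be told apart.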

How the results depend on the processing

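Of 798 alternative values of the transporters' log2 fold changes, 763 kept their direction and their side of the threshold. All 63 alternatives of the chain ratios kept their sign, in a design whose p cannot pass. All 160 counts of calls over all genes stayed within 1.5 times the main count, and 13 of 160 counts of transporters did not. With tetracycline the uncalled genes changed sign: SLC7A6 was 0.0637 with TMM scaling, 0.0689 with edgeR and -0.0767 to 0.0292 without single libraries. SLC38A1 was 0.0768 with TMM scaling, 0.0777 with edgeR and -0.018 to 0.0197 without single libraries, and SLC1A4 was 0.14 with TMM scaling, 0.135 with edgeR and -0.0184 (without P493-6 control replicate 1) to 0.11 without single libraries. Between MYCi975 and tetracycline SLC38A1 was -0.0249 with TMM scaling and -0.0255 with edgeR, and both called 2 transporters lower in place of 1. In the contrast of the lines SLC6A9 was the 1 transporter called lower, and 0 were called lower with a pseudocount of 5, with the replicate block and without any 1 of 9 libraries (range 0 to 1). The SLC3A2 difference between controls passed with TMM scaling and edgeR (0.111), and SLC38A1 in P493-6 with MYCi975 passed with both (0.122 with edgeR). The cause of these changes was not tested. Same-numbered control and treated libraries correlated in their deviations by -0.112 to 0.056, and differently numbered ones by -0.077 to 0.099. Same-numbered libraries thus did not stand out, but with 3 libraries per group this cannot tell whether the numbers mark paired cultures. With the replicate block the P493-6 MYCi975 calls over all genes were 1214 higher and 2060 lower. SLC3A2 in that comparison had an adjusted p of 0.0682 with the block, and SLC6A9 in the contrast of the lines 0.0506. With a minimum mean of 5 CPM, SLC6A9 was not in the tetracycline comparison. Depth limits SLC6A9 most, with 1 to 4 reads per tetracycline library.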
